A study of Homo sapiens with 9 samples.

Results

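CSF3, CSF2, LIF and IL6 encode secreted cytokines that act on blood cells or through receptors of the IL6 family, and all were measured in Caki-1 cells. They were picked by symbol from the deposited table, as the 4 genes with these symbols among 6819 genes, and they have 8 transcripts among 20909. Caki-1 is an established line of human clear cell renal cell carcinoma. RNA was sequenced from 9 libraries, 3 each of the groups named SH1 and SH3, in which TAF1D was knocked down by short hairpin RNA, and 3 of control cells (named NC in the titles, genotype WT). TAF1D encodes a subunit of the factor that recruits RNA polymerase I to ribosomal RNA genes. No label explains the names SH1 and SH3, or tells whether the cells are clones or pools, or whether the libraries of a group come from separate cultures, so the p-values measure only the spread between these libraries, which may be technical.

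CSF3 (G-CSF) drives the production and release of neutrophils, and CSF2 (GM-CSF) that of granulocytes and macrophages. LIF and IL6 bind their own receptor chains and then share the signalling chain IL6ST, which activates JAK kinases and STAT3. Outside the blood, epithelial and tumour cells make these proteins after inflammatory signals such as IL1 and TNF, through NF-kB, AP-1 and C/EBP factors, and their mRNAs carry AU-rich elements that make them short-lived.

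The table sets limits on every value. All 20909 transcripts differ at least 2-fold in deposited counts between SH1 1 and control 1, whereas in any of the other 35 library pairs 51.5% to 64.9% of them do. Transcripts without such a difference were not analysed here, and neither was TAF1D, so the knockdown could not be checked on its target. Among the cytokine transcripts that are higher in SH1 1, the count in SH1 1 over that in control 1 ran from 2.47 (XM_005249745 of IL6, nearest to the limit) and 2.53 (LIF) to 5.15 (CSF2). The listed counts came to 1358215 to 1596467 per library and 4.20% to 5.18% of all TPM. They are part of a library and not its depth. Of the renal marker list 1 of 10 genes was listed (PAX8, 4.44 to 6.65 FPKM in SH1, 2.88 to 9.97 in SH3 and 1.44 to 3.08 in control), so the label of the cells could be checked only on it. Of the markers of other cells, 1 of 7 for blood (CD68, 13.2 to 17.8, 12.7 to 14.1 and 7.84 to 12.5 FPKM), 1 of 6 for fibroblasts (PDGFRB, no more than 0.34 FPKM in any library) and 0 of 5 for endothelium were listed, and their part in the results was not tested. In such bulk libraries more cells that express a gene and more RNA per cell cannot be told apart.

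For IL6 and CSF2 the promoter is shown, because the factors that bind these promoters are described further on. RefSeq (GRCh38.p14) gave the 250 bases before the start for 2 of the 4 genes, each on the plus strand: CSF2 at chr5:132073539-132073788 and IL6 at chr7:22726950-22727199. Capitals mark matches to the motifs searched on both strands: the NF-kB consensus by its name, C/EBP as TTGCNNAA, the cyclic AMP response element (CRE) as TGACGTCA, STAT as TTCNNNGAA, AP-1 as TGACTCA with either C or G in the centre, the core that ETS factors share as AGGAAG with either A or C first, and the TATA box as TATAAA.
CSF2: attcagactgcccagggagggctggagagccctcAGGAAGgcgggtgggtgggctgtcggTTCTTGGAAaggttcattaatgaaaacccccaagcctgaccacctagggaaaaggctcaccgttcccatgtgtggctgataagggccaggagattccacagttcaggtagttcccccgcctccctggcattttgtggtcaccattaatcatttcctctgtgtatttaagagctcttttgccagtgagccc
IL6: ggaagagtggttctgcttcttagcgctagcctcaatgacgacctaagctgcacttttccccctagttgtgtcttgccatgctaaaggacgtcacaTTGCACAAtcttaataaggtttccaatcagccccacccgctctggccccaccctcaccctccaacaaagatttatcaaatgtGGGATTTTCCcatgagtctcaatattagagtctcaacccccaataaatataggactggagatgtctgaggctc
The CSF2 window held an ETS core at positions -216 to -211 and a STAT match at -190 to -182, counted back from the start. The IL6 window held a C/EBP match at -155 to -148 and an NF-kB match at -73 to -64. No capitals overlap. Of 35116 RefSeq promoter windows of this length, 9.96% held the NF-kB motif, 9.05% C/EBP, 6.57% STAT, 40.8% the ETS core, 4.20% AP-1, 1.65% CRE and 10.7% TATA. A match describes letters and not binding.

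CSF3 has 3 listed transcripts, and the leading pair differ by 9 coding bases at the junction of exon 2 and exon 3 (GENCODE 29, GRCh38, plus strand). Exon 2 spans chr17:40015691-40015854 in NM_000759 and chr17:40015691-40015845 in NM_172219, and exon 3 starts at 40016233 in both. The junction is shown with 15 bases on each side, with the extra bases in capitals.
NM_000759: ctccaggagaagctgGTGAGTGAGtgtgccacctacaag
NM_172219: ctccaggagaagctgtgtgccacctacaag
NM_172219 has 612 coding bases without the stop codon, NM_000759 has 621 and the shortest, NM_172220, has 513. Reads that do not cross this junction or another difference between the transcripts cannot be assigned to 1 of them directly, so their separate values are estimates.

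Over listed transcripts, CSF3 was the most abundant of the 4 cytokines in every group. Its mean FPKM in SH1 and SH3 was more than 3-fold that of control (2.88-fold and 3.28-fold in the edgeR fit described further on). Summed over its listed transcripts, CSF3 had 236.82, 243.13 and 268.01 FPKM in SH1 and 267.22, 286.62 and 252.91 FPKM in SH3, against 84.84, 74.12 and 74.1 FPKM in control. All 6 knockdown libraries lay above all 3 controls in FPKM, as they did for the sums of all 4 cytokines and for 6 of their 8 transcripts. That holds for 3.84% of the 6819 listed genes and 2.07% of the 20909 transcripts, and the cytokines were chosen with these groups in view. The means were 249 ± 16.5 FPKM in SH1, 269 ± 16.9 in SH3 and 77.7 ± 6.19 in control (SD, n = 3 each), which put CSF3 at rank 3 of 6819 listed genes in SH1 and in SH3 and at rank 10 in control. The summed counts behind these values ran from 2072 to 8285 per library, where counting error alone is 2.20% or less.

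**Figure D1:**
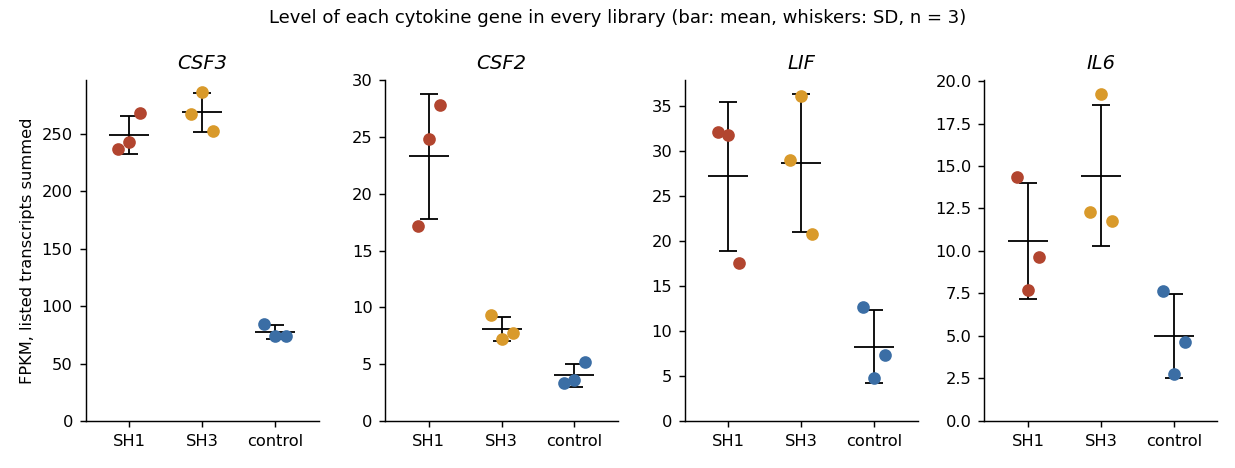
FPKM of each cytokine gene, summed over its listed transcripts, in every library of SH1, SH3 and control (points), with the mean (bar) and SD (whiskers), n = 3 per group; each panel has its own linear axis from 0. All 6 knockdown libraries lie above the 3 controls in each panel, as in 3.84% of all listed genes, by a gap that is narrow for IL6 (7.69 against 7.64 FPKM), and CSF2 is the gene for which SH3 lies apart from SH1.

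The transcript NM_172219 carried most of this level. It had 206.62, 218.06 and 235.26 FPKM in SH1 and 243.71, 256.07 and 228.58 FPKM in SH3, against 76.68, 66.36 and 60.6 FPKM in control. Its share of the listed CSF3 counts was 88.3 ± 1.27% in SH1, 90.3 ± 0.967% in SH3 and 87.3 ± 4.74% in control (SD, n = 3 each), and these means differ by less than the SD of the control libraries. The share of NM_172220 was 1.22 ± 0.248% in SH1, 0.639 ± 0.457% in SH3 and 1.83 ± 0.839% in control. NM_000759, with the 9 extra bases, had 26.67, 22.63 and 28.9 FPKM in SH1 and 20.17, 29.49 and 23.23 FPKM in SH3, against 7.37, 5.87 and 11.71 FPKM in control. Its groups do not overlap with control either. NM_172220 stayed at 3.85 FPKM or lower in every library, and its SH3 values (3.34, 1.06 and 1.1 FPKM) overlapped those of control (0.79, 1.89 and 1.79 FPKM), whereas those of SH1 (3.53, 2.44 and 3.85 FPKM) did not.

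CSF2 stood apart from the others, with its highest level in SH1, a lower one in SH3 and the lowest in control. Its only listed transcript, NM_000758, had 17.2, 24.84 and 27.8 FPKM in SH1 and 9.32, 7.22 and 7.76 FPKM in SH3, against 3.32, 3.59 and 5.2 FPKM in control. No 2 groups overlap. SH3 lay below SH1 without overlap for 12% of all listed genes and 6.79% of all transcripts, and for CSF2 alone of the 4 cytokines. The mean in SH1 (23.3 ± 5.47 FPKM) was 5.77-fold and that in SH3 (8.10 ± 1.09 FPKM) 2.01-fold the control mean (4.04 ± 1.02 FPKM; SD, n = 3 each), and SH3 had 0.348 of the SH1 mean. The counts were 247 to 413 in SH1, 106 to 136 in SH3 and 48 to 74 in control, where counting error alone is up to 14.4%. Of the summed FPKM of the 4 cytokines, CSF2 made up 7.47 ± 1.53% in SH1, 2.55 ± 0.441% in SH3 and 4.32 ± 1.32% in control.

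LIF, which acts through LIFR and IL6ST, was at a similar level in SH1 and SH3 and lower in control. Its listed transcript NM_001257135 had 32.18, 31.84 and 17.59 FPKM in SH1 and 29.02, 36.18 and 20.83 FPKM in SH3, against 12.67, 4.78 and 7.34 FPKM in control. All 6 knockdown values lie above the control values, but the third library of each knockdown group is well below its other two. The means were 27.2 ± 8.33, 28.7 ± 7.68 and 8.26 ± 4.03 FPKM in SH1, SH3 and control, with coefficients of variation of 30.6%, 26.8% and 48.7%, against a counting error of at most 5.36%. This transcript has 2 exons and 264 coding bases, whereas NM_002309, with 3 exons and 606 coding bases, was not analysed here (both in GENCODE 29).

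IL6 had the lowest mean of the 4 in SH1, and its SH1 values came close to control. Its mean lay above that of CSF2 in SH3 and in control. In control this rests on control 1 (7.64 against 3.32 FPKM), as IL6 lay below CSF2 in control 2 (2.74 against 3.59) and control 3 (4.62 against 5.2). Summed over its listed transcripts, IL6 had 14.34, 7.69 and 9.67 FPKM in SH1 and 12.28, 19.24 and 11.79 FPKM in SH3, against 7.64, 2.74 and 4.62 FPKM in control. The lowest SH1 library and the highest control library differ by less than 1%, and in TPM they overlap (17.92 in SH1 against 18.35 in control). The means were 10.6 ± 3.41, 14.4 ± 4.17 and 5 ± 2.47 FPKM in SH1, SH3 and control (SD, n = 3 each).

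The IL6 transcripts differed in how evenly they moved. The predicted transcript XM_005249745 had 6.32, 4.41 and 6.88 FPKM in SH1 and 5.56, 5.25 and 6.94 FPKM in SH3, against 2.54, 1.71 and 2.29 FPKM in control, with all knockdown libraries above all controls. NM_001318095 had 8.02, 3.28 and 2.79 FPKM in SH1 and 6.72, 13.99 and 4.85 FPKM in SH3, against 2.74, 1.03 and 2.33 FPKM in control. Here a single SH3 library is more than 2-fold above the others of its group, and the lowest SH1 value (2.79 FPKM) is next to the highest control (2.74 FPKM). In TPM SH1 and control overlap for this transcript (6.35 in SH1 against 6.58 in control). NM_001371096 was listed at 0 in 8 libraries and at 2.36 FPKM (a count of 46.43) in control 1, where it made up 23.7% of the listed IL6 counts. NM_001318095 has 408 coding bases, and NM_000600, with 636, was not analysed here.

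**Figure D2:**
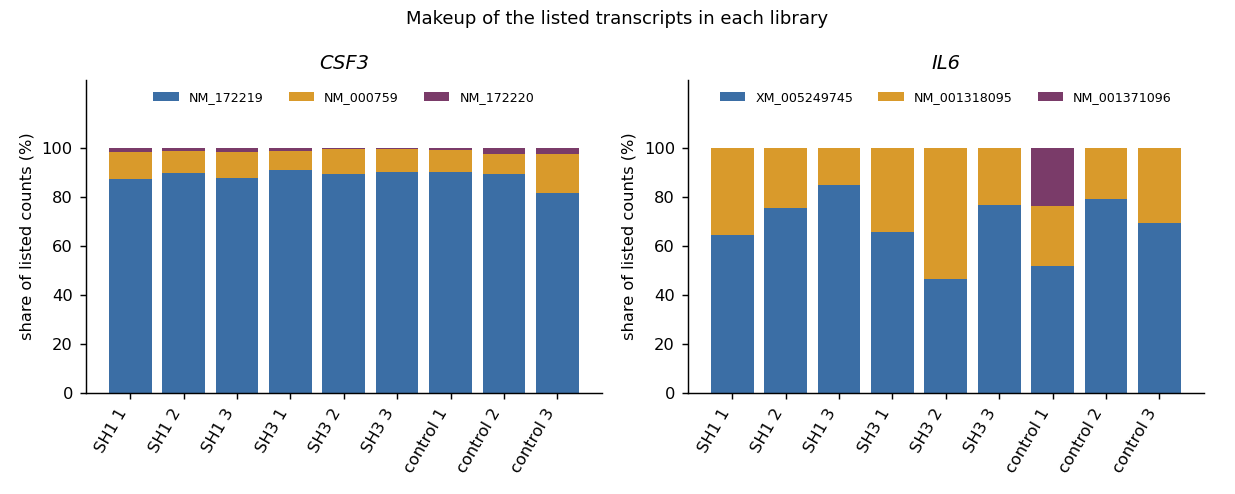
Share of the listed estimated counts (%) that each transcript takes in CSF3 and in IL6, per library in the order SH1, SH3, control. NM_172219 takes 81.8% to 91.2% of CSF3 in all libraries, and the IL6 makeup varies from library to library, with NM_001371096 present in control 1 alone.

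Together the 4 genes summed to 300.54, 307.5 and 323.07 FPKM in SH1 and 317.84, 349.26 and 293.29 FPKM in SH3, against 108.47, 85.23 and 91.26 FPKM in control. CSF3 made up 80.3%, 84.1% and 82.1% of that sum in SH1, SH3 and control. The sums hold 3 of 4 RefSeq mRNAs of CSF3 and of IL6, 1 of 1 of CSF2 and 1 of 3 of LIF. Shares and orders of the genes therefore cover listed transcripts only. The order of mean levels was CSF3, LIF, CSF2, IL6 in SH1, CSF3, LIF, IL6, CSF2 in SH3 and CSF3, LIF, IL6, CSF2 in control. CSF3 lay above the others in every library. LIF and CSF2 overlapped in SH1, where both lay above IL6, and LIF, IL6 and CSF2 overlapped in control, while in SH3 LIF lay above IL6 in all 3 libraries and IL6 above CSF2.

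The comparison of SH1 with control and that of SH3 with control ask what the knockdown changes. The cytokines were chosen with both in view, so their tests are given as a description, and both comparisons use the same control libraries. The edgeR quasi-likelihood test was fitted across the whole table and p-values were adjusted over it by Benjamini-Hochberg, and a gene is said to have changed at an adjusted p under 0.05. Of the 8 transcripts 7 passed the filter on low counts, the exception being NM_001371096, and all 4 sums did.

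In SH1 against control, 2 of the 4 summed genes rose, CSF3 and CSF2, beside 2.14% of the 6398 genes tested that changed. CSF3 had a log2 fold change of 1.52 ± 0.10 (SE; adjusted p = 0.000413, edgeR) and CSF2 one of 2.37 ± 0.34 (adjusted p = 0.0130, edgeR). LIF, at 1.58 ± 0.38 (adjusted p = 0.102, edgeR), and IL6, at 1.05 ± 0.32 (adjusted p = 0.215, edgeR), did not pass. The adjusted p of CSF2 was 0.0517 without control 2, 0.0676 without SH1 2 and 0.0770 in a fit of only the groups compared. Among the transcripts 1 of 7 rose, NM_172219 of CSF3, at 1.60 ± 0.13 (adjusted p = 0.00209, edgeR), beside 0.131% of 17495 transcripts. NM_172219 did not pass in a fit of only the groups compared (adjusted p = 0.136) or with DESeq2 (0.305). As a transcript, CSF2 had the same counts as its sum but an adjusted p of 0.515 (edgeR), since the fit on transcripts has its own dispersions and more tests. As a transcript it passed with DESeq2 (2.36, adjusted p = 0.0450), where it was the only cytokine transcript to do so, and with limma on log2(FPKM + 1) (2.26, adjusted p = 0.0118), where NM_172219 passed as well.

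In SH3 against control, 1 of the 4 sums rose, CSF3, at 1.71 ± 0.10 (adjusted p = 0.000288, edgeR), beside 0.406% of all genes tested. LIF had 1.74 ± 0.38 (adjusted p = 0.157, edgeR), IL6 1.42 ± 0.32 (adjusted p = 0.178, edgeR) and CSF2 0.92 ± 0.33 (adjusted p = 0.479, edgeR). Of the transcripts again NM_172219 alone rose, at 1.80 ± 0.13 (adjusted p = 0.00306, edgeR), beside 0.0286% of transcripts. Its call was lost in a fit of only these groups (adjusted p = 0.134) and with DESeq2 (0.222). NM_172220, the short CSF3 transcript, had 0.26 with an adjusted p of 1 (edgeR).

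Without control 1 and SH1 1, the libraries on which the table had been selected, the log2 fold changes of the sums against control lay between 0.78 and 2.45. The CSF3 sum then had 1.65 in SH1 against control (adjusted p = 0.00687, edgeR) and 1.75 in SH3 against control (adjusted p = 0.00642, edgeR). CSF2 had 2.45 in SH1 against control (adjusted p = 0.0461, edgeR) and 0.78 in SH3 against control (adjusted p = 0.468, edgeR). LIF had 1.90 and 2.14, and IL6 1.23 and 1.71, in the same comparisons, with adjusted p from 0.133 to 0.238 (edgeR).

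**Figure D3:**
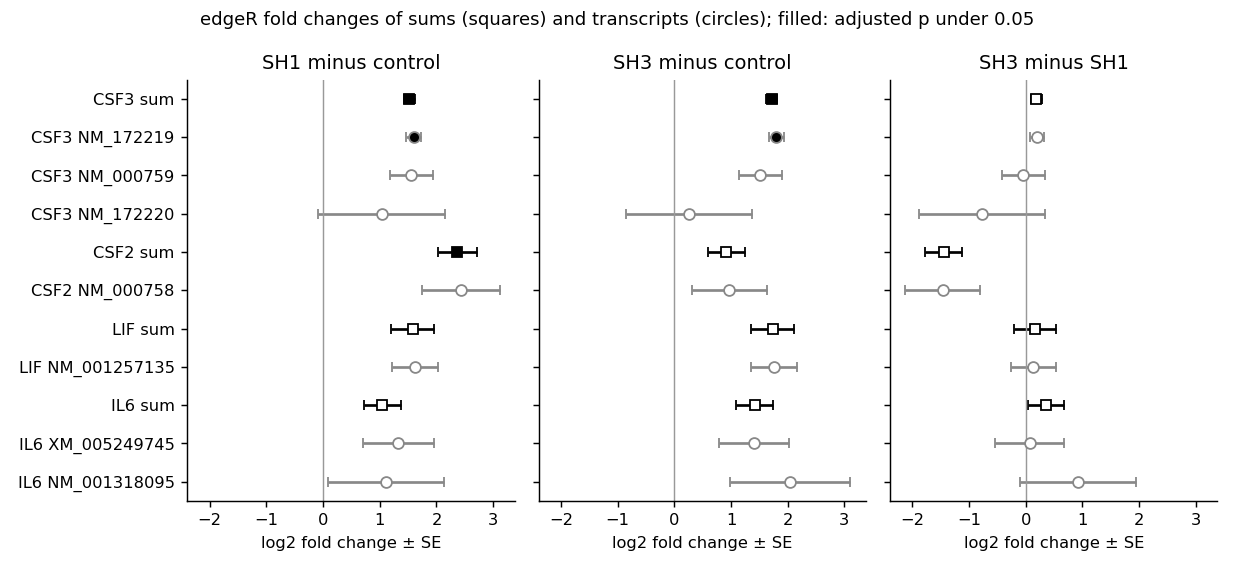
log2 fold changes ± SE of the summed genes (squares) and of each tested transcript (circles) from the edgeR fits, for SH1 minus control, SH3 minus control and SH3 minus SH1; filled symbols have an adjusted p under 0.05. CSF3 and its transcript NM_172219 pass in the comparisons with control, the CSF2 sum passes for SH1 alone (2.37 against 0.92 for SH3), and nothing passes in SH3 minus SH1.

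SH3 against SH1 sets the knockdown groups against each other and was not used to choose the genes. It is not free of selection, as the table was selected on SH1 1 against control 1. None of the 4 sums passed the edgeR test, beside 1.36% of all genes tested, and 1 of the 4, CSF2, had an unadjusted p under 0.05, beside 10.8% of all genes. CSF2 had a log2 fold change of -1.45 ± 0.33 (adjusted p = 0.107, edgeR), was lower in all 3 SH3 libraries than in any SH1 library, and passed with DESeq2 (-1.46, adjusted p = 0.000664) and with limma on log2(FPKM + 1) (-1.40, adjusted p = 0.0147). CSF3 had 0.19 ± 0.10 (adjusted p = 0.568, edgeR), IL6 0.37 ± 0.32 (adjusted p = 0.901, edgeR) and LIF 0.16 ± 0.37 (adjusted p = 1, edgeR). None of the 7 transcripts passed with edgeR, beside 0.0972% of all transcripts, and 0 of the 7 had an unadjusted p under 0.05, beside 6.25% of all transcripts; none passed with DESeq2 or limma.

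Genes known to act on the promoters of these cytokines mostly did not pass the test. Of 34 transcription factors 22 were listed and 21 tested. Unadjusted p was under 0.05 (edgeR) for 2 in SH1 and 2 in SH3 against control, beside 11.5% and 8.39% of all genes. The same held for 1 in SH3 against SH1, beside 10.8%. In each comparison with control 1 passed, beside 2.14% of all genes tested in SH1 and 0.406% in SH3. It was EGR1, an immediate early zinc finger factor, which rose in SH1 (1.94 ± 0.22, adjusted p = 0.00370, edgeR) and in SH3 (2.15 ± 0.22, adjusted p = 0.00824, edgeR). EGR1 averaged 100.5 ± 24.3 FPKM in SH1 and 110 ± 17.1 FPKM in SH3, against 23.4 ± 3.92 FPKM in control. The list's median log2 fold change was 0.22 in SH1 and 0.06 in SH3, beside -0.03 over all genes in each comparison. NFKB2, a subunit of NF-kB, had -0.10 ± 0.44 and -0.18 ± 0.44 in SH1 and SH3.

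Over all genes tested, 11.5% had an unadjusted p under 0.05 in SH1 against control, 8.39% in SH3 against control and 10.8% in SH3 against SH1. Of 32 inducers and kinases upstream of these cytokines 20 were listed and 19 tested. None passed in any comparison (unadjusted p under 0.05 for 2 in SH1 and 3 in SH3 against control and 1 in SH3 against SH1), with medians of 0.14 in SH1 and 0.05 in SH3 against control. IKBKB, a kinase that releases NF-kB, averaged 7.49 ± 2.71 FPKM in SH1, 6.81 ± 0.613 in SH3 and 6.26 ± 4.47 in control. Of 12 genes of NF-kB feedback 8 were listed and tested. Among these 1 passed in SH1 against control, beside 2.14% of all genes tested, and 0 in SH3, beside 0.406%. Unadjusted p was under 0.05 (edgeR) for 4 of the 8 in SH1 and 4 in SH3 against control, beside 11.5% and 8.39% of all genes. The same held for 1 in SH3 against SH1, beside 10.8%. TNIP1 rose in SH1 (1.52 ± 0.22, adjusted p = 0.0130, edgeR), with 65.3 ± 3.81 FPKM in SH1, 33.8 ± 4.01 in SH3 and 20.9 ± 6.59 in control. TNFAIP3, an enzyme that edits ubiquitin chains in this feedback, had 0.92 ± 0.34 in SH1 and 1.24 ± 0.35 in SH3 (adjusted p = 0.359 and 0.303, edgeR), and the list's medians were 0.36 and 0.43.

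Of 35 genes that bind AU-rich elements or degrade such mRNAs 23 were listed and tested. None passed in any comparison (unadjusted p under 0.05 for 2 in SH1 and 3 in SH3 against control and 2 in SH3 against SH1, beside 11.5%, 8.39% and 10.8% of all genes), and the medians were -0.06 in SH1 and -0.14 in SH3 against control. ZC3H12A, an RNase that degrades IL6 mRNA, averaged 8.55 ± 0.548 FPKM in SH1 and 8.09 ± 0.325 in SH3, against 4.96 ± 0.996 in control, with log2 fold changes of 0.61 ± 0.22 in each (adjusted p = 0.350 and 0.492, edgeR).

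On the receiving side, 6 of 13 receptor genes were listed and 5 tested, and none passed (unadjusted p under 0.05 for 0 in SH1 and 0 in SH3 against control and 1 in SH3 against SH1, beside 11.5%, 8.39% and 10.8% of all genes). No receptor of CSF3 or CSF2 was among the 5 tested. IL6ST averaged 4.74 ± 2.98 FPKM in SH1, 4.39 ± 2.37 in SH3 and 3.87 ± 3.50 in control, a spread that covers the differences. OSMR, a partner chain of IL6ST, averaged 7.99 ± 2.55, 6.05 ± 1.27 and 4.43 ± 2.34 FPKM. IL6R had the lowest value of the list in SH3 minus SH1, at -5.11 ± 1.70 (adjusted p = 0.287, edgeR). The receptor medians against control were the values of single genes: 0.72 in SH1 that of OSMR (SE 0.43) and -0.96 in SH3 that of IL27RA (SE 1.20). IL27RA had 0.01 to 1.38 FPKM in SH3 and 0.30 to 2.30 FPKM in control.

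Of 22 JAK, STAT and adaptor genes 17 were listed and tested. None passed (unadjusted p under 0.05 for 3 in SH1 and 2 in SH3 against control and 3 in SH3 against SH1, beside the same shares of all genes), with medians of 0.59 in SH1 and 0.05 in SH3. JAK1 averaged 32.3 ± 2.81 FPKM in SH1, 22.6 ± 3.91 in SH3 and 19.3 ± 5.44 in control. Of 17 inhibitors of this signalling 5 were listed and tested. None passed (unadjusted p under 0.05 for 2 in SH1 and 0 in SH3 against control and 1 in SH3 against SH1, beside the same shares), with medians of 0.31 and 0.23. SOCS3, which is induced by STAT3 and inhibits JAK kinases at the receptor, had 0.85 ± 0.31 in SH1 (adjusted p = 0.340, edgeR) and 0.50 ± 0.31 in SH3 (adjusted p = 0.769, edgeR). Of 25 STAT3 target genes 6 were listed and tested. Among these 1 passed in SH1 against control, beside 2.14% of all genes tested, and 0 in SH3, beside 0.406%. Unadjusted p was under 0.05 (edgeR) for 3 of the 6 in SH1 and 1 in SH3 against control, beside 11.5% and 8.39% of all genes. The same held for 3 in SH3 against SH1, beside 10.8%. C3, the central component of complement, rose in SH1 (2.78 ± 0.21, adjusted p = 0.000876, edgeR). VEGFA, the vascular growth factor, had 0.33 ± 0.22 in SH1 and 0.87 ± 0.22 in SH3 (adjusted p = 0.738 and 0.236, edgeR). The medians of that list were 0.58 and 0.15.

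Among other ligands, KITLG, the ligand of the receptor KIT, fell in SH1 (-1.45 ± 0.26, adjusted p = 0.0353, edgeR), with 7.38 ± 1.92 FPKM in SH1, 12.3 ± 1.36 in SH3 and 18.2 ± 6.65 in control. Of 14 such ligands 3 were listed and tested, and KITLG was the 1 that passed in SH1, beside 2.14% of all genes tested. Unadjusted p was under 0.05 (edgeR) for 1 of the 3 in each comparison. The medians, 0.62 in SH1 and -0.57 in SH3, were the values of CSF1 (SE 2.58 and 2.59). CSF1 averaged only 0.42 FPKM in SH1, 0.163 in SH3 and 0.243 in control. Of 36 cytokines and chemokines of other families 10 were listed and 9 tested. Among these 3 rose in SH1 and 1 in SH3, beside 2.14% and 0.406% of all genes tested that changed. Unadjusted p was under 0.05 (edgeR) for 5 of the 9 in SH1 and 3 in SH3 against control, beside 11.5% and 8.39% of all genes. The same held for 1 in SH3 against SH1, beside 10.8%. The list's medians were 1.46 in SH1 and 0.72 in SH3 against control. The neutrophil attractant CXCL1 rose in SH1 (0.89 ± 0.10, adjusted p = 0.00302, edgeR) and in SH3 (0.72 ± 0.10, adjusted p = 0.0253, edgeR). CXCL5 rose in SH1 (2.03 ± 0.34, adjusted p = 0.0235, edgeR), as did CXCL6 (1.66 ± 0.27, adjusted p = 0.0218, edgeR), while CXCL8 did not pass (1.46 ± 0.47, adjusted p = 0.247, edgeR).

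**Figure D4:**
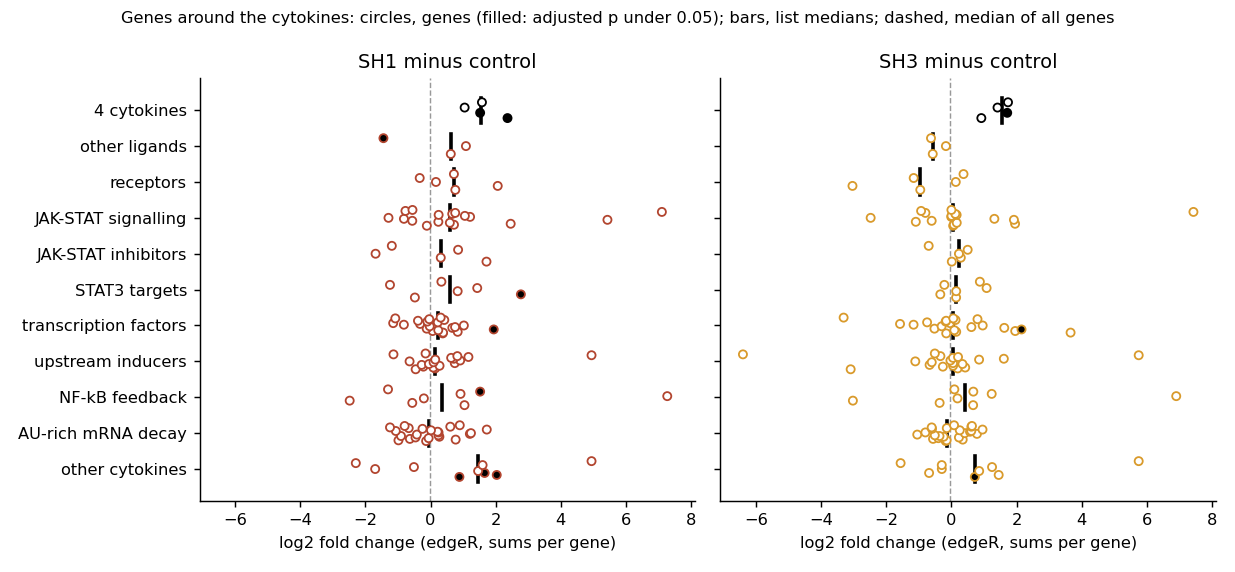
log2 fold changes (edgeR, sums per gene) of the 4 cytokines and of 10 lists of genes around them, in SH1 minus control and SH3 minus control; circles are genes (filled: adjusted p under 0.05), bars are list medians and the dashed line is the median of all genes tested (-0.03). All 4 cytokines lie right of the line in both panels, the other cytokines have the next highest median (1.46 in SH1 and 0.72 in SH3), and the inducers and decay factors scatter around the line.

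The genes most like each cytokine were found by Pearson correlation of log2(FPKM + 1) over the 9 libraries, among 3905 genes with a mean of at least 1 FPKM. These correlations describe the libraries, which share their groups, and carry no p. For CSF2 the 5 closest were SLC68A1 (0.984), MEGF6 (0.981), FMNL1 (0.978), L1CAM (0.978), a neural cell adhesion molecule, and STC1 (0.977), a secreted glycoprotein. SLC68A1 followed the same order of groups as CSF2, with mean levels of 9.67 FPKM in SH1, 4.05 in SH3 and 2.78 in control. For CSF3 they were CDKN1A (0.983), the cell cycle inhibitor p21, RPUSD4 (0.975), EREG (0.973), a ligand of the EGF receptor, EGR1 (0.973) and HES1 (0.968), a Notch target. For LIF they were BTF3L4 (0.979), ERO1B (0.974), CTHRC1 (0.966), ALG5 (0.964) and ELP3 (0.955), and for IL6 MTERF2 (0.967), ALG5 (0.965), HSCB (0.935), ZNF160 (0.931) and ELP3 (0.927). Without control 1 and SH1 1, 1 of the 5 closest genes was the same for CSF2 and for CSF3, 3 for IL6 and 4 for LIF.

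Between the cytokines, the same correlation was highest for IL6 with LIF (0.906) and CSF3 with LIF (0.900), followed by CSF3 with IL6 (0.838). CSF2 correlated less with the rest, at 0.732 with CSF3, 0.615 with LIF and 0.408 with IL6. Without control 1 and SH1 1 the order at the top changed. CSF3 with LIF was then highest (0.934), above IL6 with LIF (0.899) and CSF3 with IL6 (0.897). CSF2 still correlated less, at 0.655 with CSF3, 0.570 with LIF and 0.356 with IL6.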

How the data were processed

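RNA of 9 Caki-1 libraries was sequenced. The authors deposited 1 table of transcripts with an FPKM, a TPM, an estimated count and a normalized read count per library, per the file headers. The deposited estimated count is not whole in 65.1% of values, and the deposited normalized read count is a linear signal equal to the count rounded up over 1 factor per library (relative tolerance 1e-06). Aligner and counter are not given in the sources used here. The submitters' processing notes name a mouse build, whereas 99.957% of transcripts carry human RefSeq gene numbers, so values were read as human. Every column was mapped to a library by its name.

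Estimated counts, per transcript and summed per gene number, were rounded and tested with edgeR 4.0.16 (R 4.3.3): TMM, filterByExpr (minimum count 10), robust quasi-likelihood, 1 fit of 9 libraries, threshold 0.05. SE is the log2 fold change over the root of F. FPKM describes levels, as mean ± SD. Sums cover listed transcripts only: 1 of 1 RefSeq mRNAs of CSF2, 3 of 4 of CSF3, 3 of 4 of IL6 and 1 of 3 of LIF. Counting errors cover counting alone. Alternatives were DESeq2 1.42.0, limma 3.58.1 on log2(FPKM + 1), other scaling and filters, a replicate block, only the groups compared, and each library left out; leaving out control 1 with SH1 1 was among them, and the authors' factors were added after seeing the data. Genes and lists were chosen with earlier results of these data known. In each list the genes past the threshold in any comparison, or otherwise the 3 with the highest mean FPKM, could be named; IL6R was named after its values were seen. Symbols follow current RefSeq names.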

Additional observations from a re-analysis of the deposited data

Results flagged for a closer look

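C3, listed here as a STAT3 target, differed between the knockdown groups: its log2 fold change in SH3 minus SH1 was -3.12 ± 0.22 (adjusted p = 0.00081, edgeR), with 9.55 to 10.3 FPKM in the 3 SH3 libraries against 78.1 to 107.1 FPKM in the 3 SH1 libraries. CXCL6, a neutrophil attractant, differed likewise by -2.35 ± 0.28 (adjusted p = 0.00663, edgeR), with 3.82 to 4.32 FPKM in SH3 against 17.2 to 25.3 FPKM in SH1. In control C3 had 9.10 to 13.3 FPKM and CXCL6 had 4.41 to 8.55 FPKM.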

How the results depend on the processing

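The number of cytokine sums past the threshold in SH1 against control, 2 of 4, was 4 with DESeq2, 1 in a fit of only these groups, and 1 to 2 when each library was left out in turn. In SH3 against control, 1 sum passed, and DESeq2 gave 3 (CSF3, IL6 and LIF). In SH3 against SH1, where none passed, DESeq2 and limma gave 1 (CSF2). For transcripts in SH1 against control, DESeq2 gave 1 as edgeR did, but CSF2 in place of NM_172219, limma gave 2 and a fit of only these groups gave 0; in SH3 against control, DESeq2 gave 0 and a fit of only these groups gave 0. DESeq2's size factors, no filter on low counts and the authors' factors changed none of these counts. The CSF3 sum passed against control under all 17 alternatives in SH1 and in SH3. Signs turned only for small values: NM_172220 in SH3 against control was -0.052 without control 1 and SH1 1, and ran from -0.49 to 0.53 over the libraries left out. In SH3 against SH1, leaving out libraries gave -0.085 to 0.22 for XM_005249745, -0.18 to 0.080 for NM_000759, -0.087 to 0.33 for the LIF transcript and -0.072 to 0.34 for the LIF sum. The cause was not tested. Over the whole table, in the order SH1 against control, SH3 against control and SH3 against SH1, edgeR called 23, 5 and 17 transcripts and 137, 26 and 87 sums. DESeq2 called 444, 349 and 349 transcripts and 442, 241 and 386 sums. A fit of only the groups compared called 3, 0 and 4 transcripts and 47, 8 and 54 sums. Without control 1 and SH1 1 there were 13, 1 and 5 transcripts and 57, 7 and 56 sums. Leaving out each library gave 11 to 20, 1 to 12 and 1 to 23 transcripts and 59 to 110, 11 to 25 and 32 to 92 sums. limma called 39, 15 and 41 transcripts, and 56 sums in SH3 against control and 137 in SH3 against SH1.

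Whether replicate numbers pair the libraries is not settled by correlations of their deviations. Over transcripts, same-numbered libraries correlated at -0.275 to 0.0324 and other pairs at -0.101 to 0.189. The lowest belongs to control 1 and SH1 1, on which the table was selected. Over sums, SH1 and SH3 libraries correlated at 0.0333 to 0.076 with the same number and at -0.0562 to -0.0056 with different numbers. Same-numbered pairs with control ran from -0.0652 to 0.0209 over sums. The replicate block changed no count of cytokines past the threshold; over the whole table it called 15, 2 and 5 transcripts and 88, 12 and 39 sums. Low counts limit CSF2, NM_172220 and the IL6 transcripts, where counting error reached 14.4%, 21.9% and 23.4%.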
